A study of Mus musculus with 8 samples.

Results

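The genes described here are 8 synaptic adhesion genes, the neurexins Nrxn2 and Nrxn3, the neuroligins Nlgn1, Nlgn2 and Nlgn3, the cerebellins Cbln1 and Cbln2, and Ctnnd2, which encodes delta-catenin. They were taken by gene symbol from a table of 28460 genes, all 8 were found there, and all 8 passed the filter on low counts that left 16059 genes. RNA-seq was done on cells isolated from mouse testes at postnatal day 12, when the first germ cells are in meiotic prophase. The mice had a mixed strain background and were either Brg1 wild type (Brg1 WT, 4 libraries) or conditional knockouts of Brg1 (Brg1 cKO, 4 libraries), called wild type and knockout from here on. The gene Smarca4 encodes BRG1, the motor subunit of SWI/SNF complexes, which slide and evict nucleosomes. The labels name neither the Cre driver nor the deleted exons nor the number of animals behind a library, and they describe no sort by a marker. The design text calls the 4 samples of a genotype biological replicates.

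Neurexins are membrane proteins of the presynaptic side that bind neuroligins on the postsynaptic side, and this contact across the cleft helps to organise synapses. Cerebellins are secreted proteins of the C1q family that link neurexins to delta glutamate receptors, and Cbln1 is best known for holding the parallel fibre synapse of the cerebellum together. Delta-catenin belongs to the p120 catenin family and binds the cytoplasmic tail of classical cadherins. The genes are studied mainly in the nervous system.

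The 8 genes were chosen by name as synaptic adhesion genes expressed in these cells, that is, selected on their CPM here and with the difference between the genotypes in these libraries already known. Each gene's levels and fold changes are therefore given as a description, without a p-value. Tests are given only for other genes of the pathway and for cell type markers. The pathway lists were also chosen with earlier results of these data known, so their p-values are no independent support.

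Promoters from 250 bases before to 50 after a transcript start were matched by symbol for 4 of the 8 genes, with 7 starts in all (RefSeq, GRCm38.p6). The promoters of Ctnnd2, whose level was lower in the knockout, and of Nlgn2, whose libraries overlapped between the genotypes, are printed to set a gene that was lower beside one that overlapped. Capitals mark GGGCGG, the GC box, or its reverse complement.
Ctnnd2 promoter, chr15:30172284-30172583, plus strand: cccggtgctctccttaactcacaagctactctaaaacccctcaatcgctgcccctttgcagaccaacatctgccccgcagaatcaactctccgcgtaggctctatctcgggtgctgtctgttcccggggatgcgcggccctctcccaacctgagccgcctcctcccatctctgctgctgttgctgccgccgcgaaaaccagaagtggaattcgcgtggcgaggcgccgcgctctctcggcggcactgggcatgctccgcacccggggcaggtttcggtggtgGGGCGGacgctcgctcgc
Nlgn2 promoter, chr11:69837735-69838034, minus strand: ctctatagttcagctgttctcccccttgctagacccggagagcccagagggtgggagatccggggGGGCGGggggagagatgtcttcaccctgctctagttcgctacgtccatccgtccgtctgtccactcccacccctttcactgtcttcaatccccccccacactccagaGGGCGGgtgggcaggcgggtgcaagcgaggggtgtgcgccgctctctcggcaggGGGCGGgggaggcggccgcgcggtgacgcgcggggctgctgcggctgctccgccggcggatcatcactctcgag

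Both windows were rich in CpG. The Ctnnd2 window held 28 CpG and the Nlgn2 window 26, and 85.8% and 83.1% of 32851 promoters of the same length held fewer. The GC box was found once in the Ctnnd2 window and 3 times in the Nlgn2 window, and 35.7% of all promoters held it on either strand. CCAAT (in 37.4% of all promoters), TATAAA (13.6%) and CACGTG (7.15%), searched on both strands, were absent from both windows. GGGCGG and the other motifs share no overlapping match here. The 3 Nrxn3 starts had 2, 6 and 16 CpG and the 2 Nlgn1 starts 6 and 14, so these windows varied more within a gene than between the printed pair. A motif match is a description of the letters and not of a bound factor.

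The libraries held 20456700 to 32596000 estimated counts. The unit of level is CPM, a gene's counts divided by its library's TMM-scaled total. Smarca4 had 347.5, 356.6, 346.9 and 337.9 CPM in wild-type replicates 1 to 4 and 129.2, 122.3, 110.9 and 121.7 CPM in knockout replicates 1 to 4, so no label was contradicted. Germ cell markers were present, all 10 above 0, at a summed 1529 to 1979 CPM in the wild type and 1190 to 1562 in the knockout. Markers of Sertoli cells, the somatic nurse cells of the tubule, summed to 4694 to 6298 and 6192 to 8316 CPM, so the cells labelled spermatogenic included somatic RNA. In knockout replicate 4 the summed peritubular and stromal markers, 1815 CPM, stood below the 2755 to 2889 CPM of the other knockout libraries.

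Of the 8 adhesion genes 3 had an adjusted p under 0.05 in the fit across all genes, all lower in the knockout, and the same 3 were those whose libraries did not overlap between genotypes. Of all tested genes 20.6% were called, 11.8% lower and 8.79% higher, and 26.0% had libraries that did not overlap, 15.0% of all tested genes with the knockout lower and 11.1% with it higher. Because the genes were chosen with this contrast known, nothing is read from their count. The median log2 fold change was -0.25 over the 8 genes and 0.013 over all tested genes. The other 5 genes overlapped between genotypes. In bulk samples such as these, fewer cells of a type and less RNA per cell cannot be told apart.

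**Figure D1:**
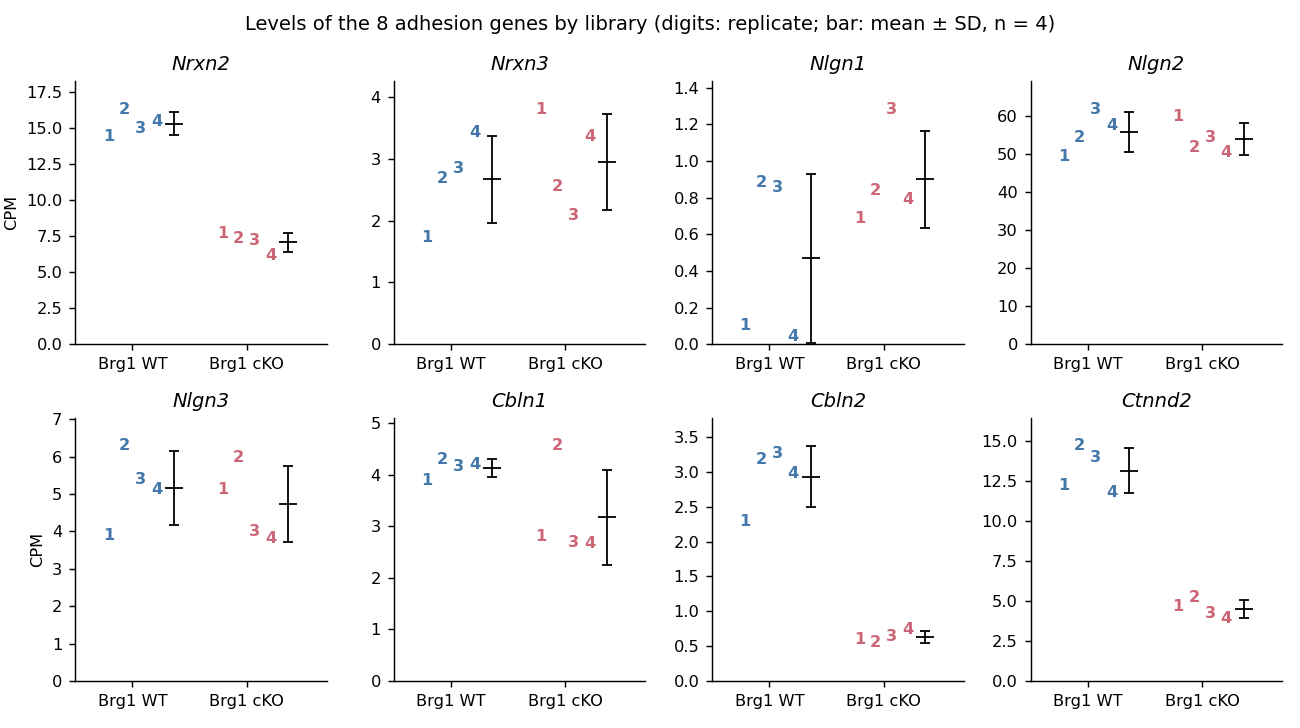
CPM (y axis, linear, each panel on its own scale from 0) of each of the 8 genes in the wild type (blue) and the knockout (red), with digits for the replicate and a bar for the mean ± SD of 4 libraries. Nrxn2, Cbln2 and Ctnnd2 separate the genotypes, and the other 5 overlap.

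Among the neurexins, which are the presynaptic receptors of the group, Nrxn2 was lower in the knockout and Nrxn3 was not separated. Nrxn2 had 14.4, 16.3, 15.0 and 15.5 CPM in wild-type replicates 1 to 4 and 7.69, 7.33, 7.18 and 6.13 CPM in knockout replicates 1 to 4. Every wild-type library lay above every knockout library. The means were 15.3 ± 0.80 and 7.08 ± 0.67 CPM (SD over n = 4 a genotype). This is a log2 fold change of -1.11 ± 0.11 (SE), or 2.16-fold lower. The spread among wild-type libraries, a coefficient of variation of 5.23%, was close to the 4.85% that counting alone gives.

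Nrxn3 had 1.72, 2.68, 2.84 and 3.42 CPM in the wild type and 3.80, 2.55, 2.08 and 3.36 CPM in the knockout. The genotypes overlapped throughout, with the lowest value in wild-type replicate 1 and the highest in knockout replicate 1. The log2 fold change was 0.14 with a 95% interval from -0.44 to 0.73, and it was -0.29 when the Sertoli cell marker median was taken as no change. Nrxn3 varied by 26.5% among wild-type libraries and 26.3% among knockout libraries, where counting alone gives 11.7% and 12.2%.

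Of the counts of Nrxn2 and Nrxn3 together, Nrxn2 took 81.9% to 89.4% in the wild type and 64.6% to 77.5% in the knockout. The share of Nrxn3 was thus larger where Nrxn2 was lower, while the level of Nrxn3 itself overlapped. Neurexin genes each give long and short forms from separate starts, which a count per gene symbol does not separate.

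**Figure D2:**
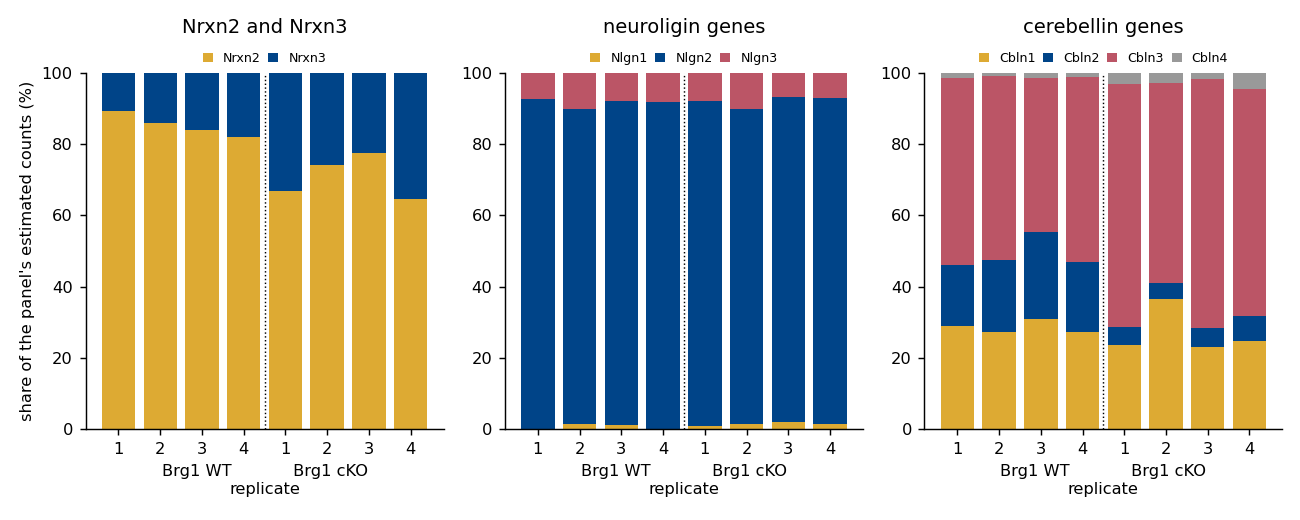
Share of the estimated counts of the genes in each panel (y axis, percent) taken by each gene in the 8 libraries (x axis, genotype and replicate), not corrected for transcript length. Nrxn2 takes 81.9% to 89.4% of the counts of Nrxn2 and Nrxn3 in the wild type and 64.6% to 77.5% in the knockout, and Cbln2 takes 17.2% to 24.3% of cerebellin counts and then 4.39% to 6.88%, while Nlgn2 holds 88.3% to 92.5% of neuroligin counts in all 8 libraries.

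The neuroligins, the postsynaptic ligands of neurexins, showed no separation of the genotypes. Nlgn2, found in the nervous system mainly at inhibitory synapses, had the highest level of the 8 genes, in CPM and per transcript length. Its levels were 49.3, 54.5, 61.9 and 57.6 CPM in the wild type and 59.9, 51.7, 54.4 and 50.4 CPM in the knockout, with both ranges nearly covering each other. The means were 55.8 ± 5.29 and 54.1 ± 4.24 CPM (SD, n = 4 a genotype). The log2 fold change of -0.046 had a 95% interval from -0.24 to 0.15, the narrowest of the 8. It was 0.23 relative to the germ cell marker median and -0.48 relative to the Sertoli cell marker median.

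Nlgn3, an X-linked neuroligin, had 3.88, 6.29, 5.38 and 5.13 CPM in the wild type and 5.13, 5.98, 4.01 and 3.81 CPM in the knockout. Replicate 2 was the highest library within each genotype, and the ranges overlapped almost fully. The log2 fold change was -0.13 with a 95% interval from -0.58 to 0.33, and it was 0.15 relative to the germ cell marker median.

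Nlgn1, the neuroligin of excitatory synapses, was close to the limit of detection. It had 3, 23, 28 and 1 estimated counts in wild-type replicates 1 to 4 and 15, 23, 32 and 16 in knockout replicates 1 to 4. Wild-type replicates 1 and 4 were thus far below replicates 2 and 3, which lay within the knockout range once scaled (0.88 and 0.86 CPM, against 0.69 to 1.28). The log2 fold change of 0.92 had a 95% interval from -0.65 to 2.49, and it ranged from 0.56 without wild-type replicate 4 to 1.41 without wild-type replicate 3. With an interval this wide no difference was shown in either direction. The wild-type libraries varied by 98.2%, where counting alone gives 27.1%.

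Of the cerebellins, the secreted bridging proteins, Cbln2 showed the steepest difference of all 8 genes. Cbln2 had 2.29, 3.18, 3.27 and 2.97 CPM in wild-type replicates 1 to 4 and 0.60, 0.55, 0.64 and 0.74 CPM in knockout replicates 1 to 4. The highest knockout library reached less than the lowest wild-type library by a wide margin. In estimated counts these were 68, 83, 107 and 73 against 13, 15, 16 and 15, so the knockout level rests on 59 counts in all. The means were 2.93 ± 0.44 and 0.63 ± 0.083 CPM (SD over n = 4 a genotype). This is a log2 fold change of -2.21 ± 0.21 (SE) or 4.63-fold lower. Only 0.299% of the tested genes had a lower log2 fold change.

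Cbln1 had 3.88, 4.29, 4.16 and 4.19 CPM in the wild type and 2.79, 4.56, 2.69 and 2.67 CPM in the knockout. The wild-type libraries were tight, with a coefficient of variation of 4.29%, below the 9.32% that counting alone gives. Knockout replicates 1, 3 and 4 lay below all wild-type libraries, while replicate 2 was the highest of all 8. The log2 fold change was -0.37 with a 95% interval from -0.83 to 0.077. Without knockout replicate 2 it was -0.60 and Cbln1 passed the threshold, in a fit that called 3477 of 16230 genes. It did not pass in the fit of all 8 libraries or when any other single library was left out. Nothing is read from a call reached by leaving out the highest library. Knockout replicate 2 also had the highest summed endothelial markers, 414.2 CPM, against 170.7 to 268.8 CPM in the other knockout libraries. Endothelial markers were not alone in this. Among other lists, it was the highest knockout library for summed germ cell (1562 CPM) and undifferentiated spermatogonia markers (348.4 CPM). It was the lowest knockout library for summed Sertoli cell markers (6192 CPM). The part of any cell type in the Cbln1 value was not tested.

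Cbln3 and Cbln4 complete the cerebellin family. Cbln3 had 7.24 ± 1.07 CPM in the wild type and 7.52 ± 0.67 CPM in the knockout (SD, n = 4 a genotype; adjusted p = 0.803, edgeR quasi-likelihood test), with a 95% interval of the log2 fold change from -0.26 to 0.37. Cbln4 did not pass the filter, with 3 to 6 estimated counts in the wild-type libraries and 5 to 10 in the knockout libraries. The cerebellin whose level differed most between the genotypes was thus Cbln2.

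Ctnnd2, the catenin of the set, was lower in every knockout library. It had 12.2, 14.7, 13.97 and 11.8 CPM in wild-type replicates 1 to 4 and 4.67, 5.25, 4.21 and 3.91 CPM in knockout replicates 1 to 4. The genotypes stood apart with no library between them. The means were 13.2 ± 1.39 and 4.51 ± 0.58 CPM (SD over n = 4 a genotype). This is a log2 fold change of -1.54 ± 0.13 (SE) or 2.92-fold lower. The log2 fold change of Smarca4 itself was -1.52 ± 0.061.

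**Figure D3:**
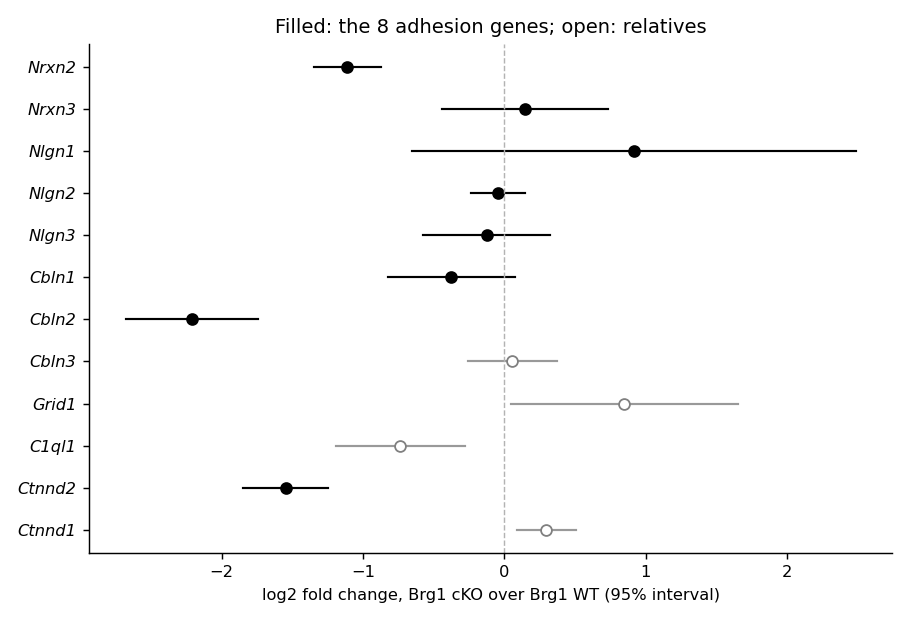
Log2 fold change of knockout over wild type (x axis) with its 95% interval for the 8 genes (filled) and 4 relatives (open). The intervals of Nrxn2, Cbln2 and Ctnnd2 lie wholly below 0, those of the other 5 filled genes span 0, and that of Nlgn1 is the widest. The 8 genes were chosen with this contrast known, so their intervals are a description and not a test.

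The values of Nrxn2, Cbln2 and Ctnnd2 under other settings are given as a description only. Leaving out any single library moved their log2 fold changes only within -1.15 to -1.05, -2.31 to -2.14 and -1.62 to -1.48. Relative to the germ cell marker median they were -0.84, -1.94 and -1.27. Without wild-type replicates 1 and 2, whose summed pachytene and spermatid markers were highest (289.1 and 256.5 CPM, others at most 203.7), they were -1.10, -2.30 and -1.51.

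The CPM and the shares of counts given above were not corrected for transcript length, and the labels do not name the transcripts used for counting. To order the adhesion genes by level, CPM was taken per kilobase of the longest coding transcript in GENCODE vM21. On that scale of CPM per kb the wild-type order was Nlgn2 (10.03), Nrxn2 (2.30), Ctnnd2 (2.22), Cbln1 (1.48), Cbln2 (1.15), Nlgn3 (0.605), Nrxn3 (0.337) and Nlgn1 (0.0398). Nrxn2 and Ctnnd2 did not differ beyond their spread of 0.12 and 0.234 (SD, n = 4), and they changed places when the median transcript length was used (2.99 and 3.21), as did Nlgn3 and Nrxn3 (0.628 and 0.73). In the knockout the order was Nlgn2 (9.71), Cbln1 (1.13), Nrxn2 (1.06), Ctnnd2 (0.759), Nlgn3 (0.554), Nrxn3 (0.372), Cbln2 (0.248) and Nlgn1 (0.0762). Cbln1 and Nrxn2 there lay within the spread of Cbln1, 0.329, while all other neighbours in either order differed by more than the SD of each. Nlgn2 thus led in both genotypes, and Cbln2 moved from the fifth place to the seventh.

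In the GENCODE annotation exons of Nrxn2 overlap Slc22a12 on the opposite strand, which had 1 to 7 estimated counts in the wild type and 0 to 4 in the knockout. Nlgn3 shares exons with the provisional gene Gm21986 on its own strand, which was not analysed here. Nrxn2, Nrxn3 and Nlgn1 also overlap provisional genes on the opposite strand (Gm14964, Gm37980 and A830092H15Rik), which were not analysed here. The library kit keeps strand, but the labels do not say whether counting used it. Nlgn2, Cbln1, Cbln2 and Ctnnd2 overlap no exon of another gene.

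For likeness of pattern, log2 CPM was centred on each gene's mean over the 8 libraries, and the root mean square difference between genes was taken. For Ctnnd2 the nearest gene was Smarca4 (0.13 on the log2 scale), followed by Neurl1b (0.142). Nrxn2 was nearest to Igfbpl1 (0.123) and Steap1 (0.13), and Cbln2 to Hydin (0.124) and Lhx2 (0.196). The log2 fold changes of Igfbpl1, Steap1, Hydin and Lhx2 were -1.03, -1.12, -2.25 and -1.90, and that of Neurl1b was -1.39. For these genes and for Smarca4, the gene knocked out, the measure itself fixes the likeness, since the genotype difference makes up much of it. Nearness of Ctnnd2 to Smarca4 therefore says no more than that their fold changes were alike. For the others the nearest pairs were P2rx7 and Lrrfip1 (Nrxn3, 0.14 and 0.154), Dynlrb1 and Abhd2 (Nlgn2, 0.0469 and 0.0523), Pygl and Cacna1h (Nlgn3, 0.0888 and 0.0974), and Prex1 and Pou3f1 (Cbln1, 0.0673 and 0.0734). Nlgn1 was too low for this measure. Among the 3 lower genes the differences were 0.239 (Nrxn2 and Ctnnd2), 0.362 (Cbln2 and Ctnnd2) and 0.531 (Nrxn2 and Cbln2). Pairs of the other genes had differences of like size, such as Nlgn3 with Cbln1 (0.232) and with Nlgn2 (0.233). Those genes varied less, with a root mean square about their own mean of 0.262 (Nlgn3), 0.305 (Cbln1) and 0.11 (Nlgn2). For Nrxn2 and Ctnnd2 it was 0.562 and 0.78. Differences of like size thus do not make these pairs equally alike in pattern.

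Germ cell markers were counted in the same libraries. Of the 10 general germ cell markers 2 were called lower, with a median log2 fold change of -0.28, and their summed levels, given above, overlapped between the genotypes. The lists by stage were lower in the knockout. Summed markers of undifferentiated spermatogonia were 390.4 to 524.9 CPM in the wild type and 265.9 to 348.4 CPM in the knockout, with 8 of 10 markers called lower and a median log2 fold change of -0.74. Those of differentiating spermatogonia were 840.8 to 956.1 and 492.7 to 613.5 CPM, with 5 of 7 called lower and a median of -0.74. Meiotic prophase markers were 1225 to 1796 and 905.2 to 1081 CPM (7 of 10 called lower, median -0.58), and pachytene and spermatid markers 183.9 to 289.1 and 130.7 to 145 CPM (6 of 8 tested called lower, median -1.29). Sertoli cell markers had 5 of 12 called higher and none lower, with a median of 0.43. None of these markers was at 0 in all libraries. The part of cell composition in the lower levels of Nrxn2, Cbln2 and Ctnnd2 was not tested.

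Neuronal and glial markers were counted because the 8 genes are best known from nerve tissue. Of 10 neuronal markers 6 passed the filter and none was called, with 1 at an unadjusted p under 0.05, and the summed level was 180.9 to 217.9 CPM in the wild type and 150.6 to 219.1 in the knockout. Tubb3 and Map2, which are also made outside neurons, gave most of it (145 and 40.7 CPM in the wild type). Snap25, Stmn2 and Nefl, a synaptic vesicle fusion protein, a tubulin-binding protein and a neurofilament, had means of 0.28, 0.16 and 0.29 CPM there and did not pass the filter. Among Schwann cell and glial markers Sox10 fell (log2 change -1.34, adjusted p = 0.00405, edgeR quasi-likelihood test), and the summed level of the list was 74.1 to 84.2 CPM against 82.3 to 92.9.

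**Figure D4:**
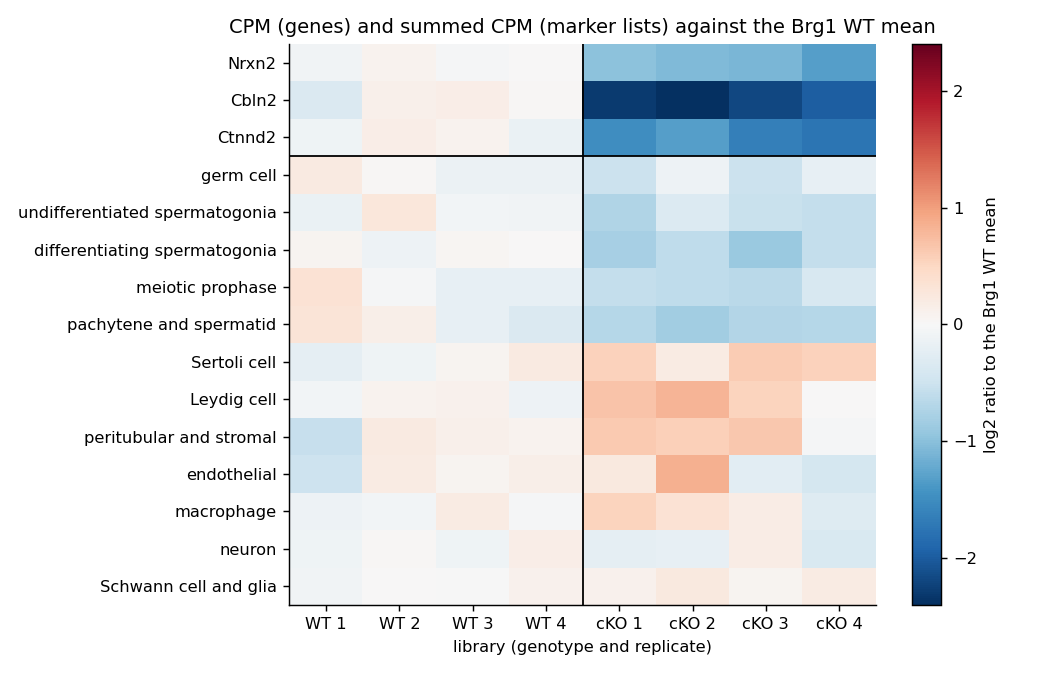
Log2 ratio (colour) of each library's CPM to the wild-type mean for Nrxn2, Cbln2 and Ctnnd2 and of the summed CPM of 12 marker lists (rows) over the 8 libraries (columns). The 3 genes and the germ cell lists lie below the wild-type mean in all 4 knockout libraries, and the Sertoli cell list lies above it.

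The other genes of the pathway were taken from 6 lists of 133 genes, of which 107 were tested. In the edgeR quasi-likelihood test with Benjamini-Hochberg adjustment over all 16059 genes, 20 fell, 15 rose and 72 were not called. The share called, 32.7%, stands beside 20.6% of all tested genes, and the median log2 fold change was 0.11. Because the lists were chosen with earlier results of these data known, nothing is read from that share. The balance depended on the level taken as no change. Relative to the germ cell marker median (a shift of -0.28) 6 fell and 45 rose, and relative to the Sertoli cell marker median (0.43) 58 fell and 1 rose. For all genes the split moved from 1412 higher and 1900 lower to 6820 and 754, and to 53 and 9326. Without wild-type replicates 1 and 2, 4 of the 107 fell and 2 rose. Of single libraries, wild-type replicate 2 and knockout replicate 1 changed these counts most: without them 7 and 7 rose and 11 and 12 fell. Without wild-type replicate 1, 9 rose, and without wild-type replicate 3 or knockout replicate 3, 12 fell.

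**Figure D5:**
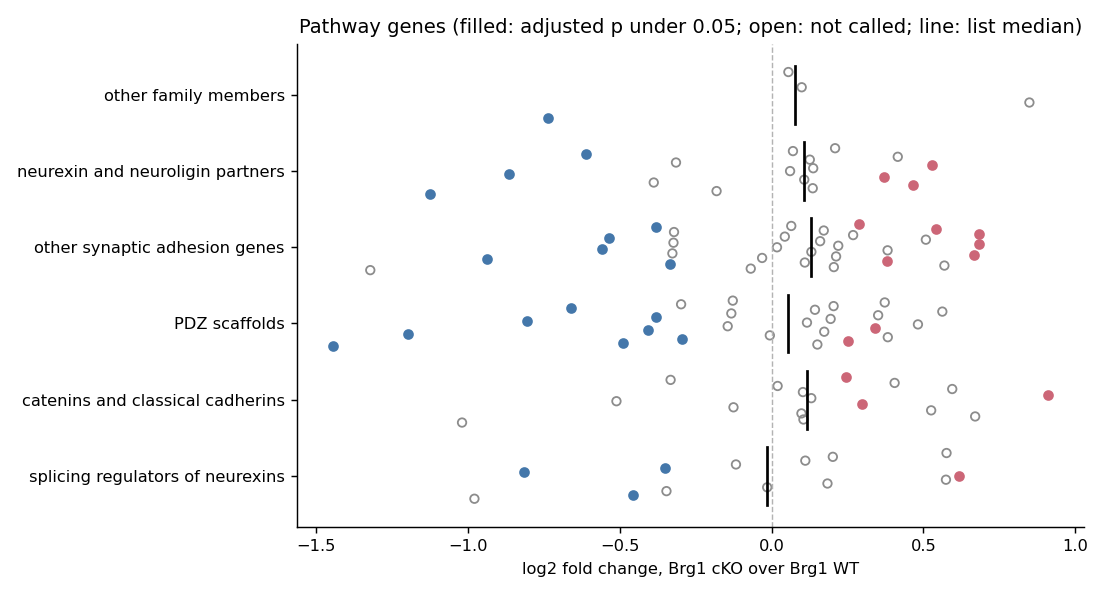
Log2 fold change of knockout over wild type (x axis) of the 107 tested pathway genes in 6 lists (rows, vertical scatter only to separate points). Red and blue points were called higher and lower, open points were not called, and black lines mark the list medians, which lie between -0.014 and 0.13.

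Among the other family members and receptors of cerebellins 1 of 4 tested genes fell, none rose and 3 were not called. C1ql1, a secreted relative of the cerebellins, fell from a mean of 5.26 ± 0.72 to 3.14 ± 0.85 CPM (SD, n = 4 a genotype; log2 change -0.74 ± 0.20 SE, adjusted p = 0.0326). That call was lost without wild-type replicate 2, 3 or 4 or knockout replicate 1, 3 or 4 (adjusted p up to 0.0906), and relative to the germ cell marker median, where the value was -0.46 (adjusted p = 0.0877). Grid1, a delta glutamate receptor bound by cerebellins, had 1.653, 2.45, 2.48 and 5.74 CPM in the wild type and 6.46, 5.21, 4.09 and 6.38 CPM in the knockout (adjusted p = 0.117). The genotypes overlapped through wild-type replicate 4 alone.

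Of 17 tested partners of neurexins and neuroligins 3 rose, 3 fell and 11 were not called. Lphn1 and Lphn2 (now Adgrl1 and Adgrl2), latrophilins, adhesion receptors that bind teneurins, rose from a mean of 499 ± 17.9 to 689 ± 51.3 and from 105 ± 16.2 to 152 ± 25.02 CPM (SD, n = 4 a genotype; adjusted p = 0.00418 and 0.0297). Lphn3 (now Adgrl3) fell from a mean of 4.94 ± 0.22 to 3.22 ± 0.80 CPM (adjusted p = 0.0432). Clstn2, a calsyntenin, fell from a mean of 9.98 ± 0.92 to 5.48 ± 0.96 CPM (log2 change -0.86 ± 0.15 SE, adjusted p = 0.00603), and Bace1, a protease of adhesion proteins, was 1.29-fold higher. Igsf21, a ligand of Nrxn2 at inhibitory synapses, fell from a mean of 1.85 ± 0.83 to 0.84 ± 0.24 CPM (adjusted p = 0.0425), with 3.09 CPM in wild-type replicate 4 and 1.42 to 1.46 in the other wild-type libraries. Leaving out any library ended the Igsf21 call, and any but knockout replicate 2 the Lphn3 call (adjusted p up to 0.114 for each). The Lphn2 call was lost without wild-type replicate 1, 2 or 4 or knockout replicate 1 or 4 (up to 0.077). Relative to the Sertoli cell marker median Lphn1 was 0.034, Lphn2 0.096 and Bace1 -0.060, none of them called (adjusted p = 0.71, 0.591 and 0.529). Relative to the germ cell marker median Igsf21 was -0.85 and Lphn3 -0.34, both uncalled (adjusted p = 0.0613 and 0.155).

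Other synaptic adhesion genes had 6 higher, 5 lower and 20 uncalled of 31 tested. Ptprd, a receptor phosphatase that organises presynaptic sites, rose from a mean of 98.9 ± 11.6 to 157 ± 15.6 CPM (SD, n = 4 a genotype; log2 change 0.67 ± 0.10 SE, adjusted p = 0.00405). Flrt2, a latrophilin ligand, and Tenm4, a teneurin, were 1.60-fold and 1.30-fold higher, Tenm4 turning to -0.051 relative to the Sertoli cell marker median. Ntrk3, a neurotrophin receptor, fell from a mean of 2.26 ± 0.21 to 1.18 ± 0.16 CPM (adjusted p = 0.0108). Lrfn4 and Pvrl3 (now Nectin3), a nectin that also serves contacts of Sertoli cells with spermatids, were 1.45-fold and 1.30-fold lower. Relative to the germ cell marker median Lrfn4 was -0.26 and Pvrl3 -0.11, and neither was called (adjusted p = 0.0712 and 0.272). Relative to the Sertoli cell marker median Ptprd was 0.24 and Flrt2 0.25, and these calls too were lost (adjusted p = 0.0676 and 0.138).

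PDZ scaffolds, the cytoplasmic proteins that gather neurexins, neuroligins and receptors, had 8 lower, 2 higher and 16 uncalled members of 26. Apba2, a Mint adaptor of the neurexin tail, fell from a mean of 10.2 ± 1.94 to 3.74 ± 0.62 CPM (SD, n = 4 a genotype; log2 change -1.44 ± 0.18 SE, adjusted p = 0.00233). Shank2, a postsynaptic scaffold, fell from a mean of 17.4 ± 1.09 to 7.59 ± 1.55 CPM (log2 change -1.20 ± 0.14 SE, adjusted p = 0.00208), and Magi3 was 1.33-fold lower. Sdcbp and Dlgap4 were 1.19-fold and 1.27-fold higher, and both turned negative, to -0.18 and -0.091, relative to the Sertoli cell marker median. In that setting Sdcbp was called lower (adjusted p = 0.0192) and Dlgap4 was not called (adjusted p = 0.43). The Dlgap4 call was lost when any single wild-type library or knockout replicate 1 was left out (adjusted p up to 0.0789). Magi3 was -0.13 relative to the germ cell marker median and no longer called (adjusted p = 0.104). Apba2 and Shank2 were called in every fit run.

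Relatives and partners of delta-catenin had 3 higher, none lower and 13 uncalled members of 16. Cdh4, a classical cadherin, rose from a mean of 2.81 ± 0.26 to 5.28 ± 0.61 CPM (SD, n = 4 a genotype; log2 change 0.91 ± 0.15 SE, adjusted p = 0.00564). Ctnnb1 (beta-catenin) was 1.19-fold higher, and Ctnnd1 (p120 catenin), the nearest relative of Ctnnd2 in this list together with Arvcf and Pkp4, had 304 ± 28.8 and 373 ± 37.8 CPM with overlap between libraries (adjusted p = 0.04999). These 2 calls were lost without wild-type replicate 1, 2 or 3 or knockout replicate 1 or 4, and that of Ctnnd1 also without knockout replicate 3 (adjusted p up to 0.0882 and 0.132). Relative to the Sertoli cell marker median Ctnnb1 turned to -0.19 and was called lower (adjusted p = 0.0339). Ctnnd1 turned to -0.14 there and was not called (adjusted p = 0.249). Arvcf had 44.5 CPM in the wild type and 35.4 in the knockout (adjusted p = 0.0683), and Pkp4 43.6 and 46.9 (adjusted p = 0.259).

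RNA-binding proteins that regulate splicing of neurexins and other neuronal transcripts had 3 lower, 1 higher and 9 uncalled members of 13. Celf4 fell from a mean of 6.69 ± 0.37 to 3.79 ± 0.54 CPM (SD, n = 4 a genotype; log2 change -0.82 ± 0.14 SE, adjusted p = 0.00698). Khdrbs3 and Ptbp2 were 1.37-fold and 1.28-fold lower, and Srrm4 was 1.53-fold higher with overlap between libraries. The Khdrbs3 call was lost without wild-type replicate 2 or 3 or knockout replicate 1, the Ptbp2 call when any single library other than knockout replicate 4 was left out, and the Srrm4 call when any single library other than wild-type replicate 3 or knockout replicate 2 was left out (adjusted p up to 0.0562, 0.114 and 0.0857). Khdrbs3 was -0.18 and Ptbp2 -0.078 relative to the germ cell marker median, and relative to the Sertoli cell marker median Srrm4 was 0.19, all uncalled (adjusted p = 0.178, 0.566 and 0.381). Which exons of Nrxn2 or Nrxn3 were used cannot be read from counts per gene.

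Of the 25 pathway genes named, 15 were called in all 8 fits that left out a single library. Without wild-type replicates 1 and 2 only Ptprd, Flrt2, Shank2 and Apba2 of the 25 were called (adjusted p = 0.0366, 0.0482, 0.032 and 0.0166), in a fit with 438 calls in all.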

How the data were processed

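The data are 8 RNA-seq libraries of cells from mouse testes at postnatal day 12. Groups and replicate numbers came from the sample titles. Per the submitters' processing notes reads were quantified with kallisto 0.42.5, with mm9 and edgeR also named, and the deposited values are estimated counts per gene symbol, not scaled. Of the values 39.4% were not whole (tolerance 0.001), so they were rounded. Every pair of libraries differed beyond sampling noise (chi-square over its degrees of freedom at least 21.5).

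Genes were filtered with filterByExpr, scaled by TMM factors, and the quasi-likelihood F test of edgeR 4.0.16 (R 4.3.3) was run with genotype as the term, Benjamini-Hochberg adjusted at 0.05 over all genes. SE is the absolute log2 fold change over the square root of F, and 95% intervals use the t distribution of that fit. Expected counting variation is Poisson. On simulated counts (15870 genes, 200 changed) 65.7% of 2-fold and 37.4% of 1.5-fold changes were recovered, with 9 false among 111 calls.

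Alternatives were RLE and upper-quartile factors, DESeq2 1.42.0, no filter, 1 CPM in 4 libraries, a replicate block, left-out libraries, and marker medians as no change. The members and lists were chosen with earlier results of these data known. Genes named are all members, up to 3 called genes per pathway list and direction by smallest adjusted p (where none was called, the most abundant gene), family relatives, and the 2 nearest patterns (prior count 2, average log2 CPM of at least 1, provisional Gm and Rik symbols left out) per member with average log2 CPM of at least 0. Marker genes, Grid1 and Slc22a12 fall outside that rule and were named after their values were seen. Symbols were matched to GENCODE vM21 for lengths only. Some genes of the lists are not reported here.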

Additional observations from a re-analysis of the deposited data

Results flagged for a closer look

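In groups of 4 libraries, a library was singled out when its gap to the next, as a part of the group's range, passed Dixon's 95% critical value, which chance gives in about 1 of 20 groups. Here 6 of 94 groups met it. Cbln1 in Brg1 cKO replicate 2 had 4.56 CPM, against 2.67 to 2.79 CPM in the other Brg1 cKO libraries. In the same library its relative C1ql1 had 4.41 CPM (others 2.65 to 2.79) and Cdh4 6.2 CPM (others 4.89 to 5.05). In Brg1 WT, Igsf21 had 3.09 CPM in replicate 4 (others 1.42 to 1.46) and Ptbp2 96.6 CPM in replicate 1 (others 86.2 to 87.2). Summed peritubular and stromal markers were 1815 CPM in Brg1 cKO replicate 4, against 2755 to 2889 CPM in the others.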

How the results depend on the processing

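The adhesion genes were chosen on this contrast, so their calls support nothing. Nrxn2, Cbln2 and Ctnnd2, and no others, were called under every alternative run except those relative to the Sertoli cell marker median (6 lower, adding Nlgn2, Nlgn3 and Cbln1) and without Brg1 cKO replicate 2 (4 lower, adding Cbln1, with 3477 of 16230 genes called). Relative to the germ cell marker median the log2 fold changes of Nrxn2, Nlgn2, Cbln1, Cbln2 and Ctnnd2 were -0.836, 0.229, -0.10, -1.94 and -1.27. Relative to the Sertoli cell marker median those of Nrxn2, Nrxn3, Nlgn2, Nlgn3, Cbln1, Cbln2 and Ctnnd2 were -1.54, -0.286, -0.477, -0.556, -0.805, -2.64 and -1.98. These shifts follow from the level taken as no change.

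Calls over all genes (1412 higher, 1900 lower) were 6820 and 754 relative to the germ cell median, 53 and 9326 relative to the Sertoli cell median, 96 and 342 without Brg1 WT replicates 1 and 2, and 2228 higher with DESeq2. Pathway calls (15 higher, 20 lower) were then 45 and 6, 1 and 58, 2 and 4, and 23 higher. Leaving out each library gave 556 to 1497 higher and 1052 to 1980 lower genes, and 7 to 17 higher and 11 to 21 lower pathway genes, with falls of over 1.5 times in both directions of the whole-table count without Brg1 WT replicate 2 or 3 or Brg1 cKO replicate 1 or 3, and in the higher genes without Brg1 WT replicate 1. Apart from fits with fewer libraries, the cause was not tested. Relative to the Sertoli cell median Bace1, Tenm4, Sdcbp, Dlgap4, Ctnnb1 and Ctnnd1 turned to -0.060, -0.0508, -0.18, -0.0912, -0.186 and -0.135. Of these Sdcbp and Ctnnb1 were called lower in that setting (adjusted p = 0.0192 and 0.0339, edgeR quasi-likelihood test), and the others were not called.

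Replicate numbers recur in both genotypes, but same-numbered libraries did not deviate together (correlations across genes from -0.367 to 0.152, 2 of 4 above 0.1, and 1 of 4 Brg1 WT libraries best with its own number). With the replicate number as a block 745 genes were called higher and 1169 lower, and 8 pathway genes higher. Counts were low for Nlgn1 (1 to 32 a library) and for Cbln2 in Brg1 cKO (13 to 16). Nlgn1 did not pass the filter of 1 CPM in 4 libraries.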
